A study of Triticum aestivum with 2 samples.

Results

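The epidermis is the outermost cell layer of the root, through which water and nutrients enter and from which root hairs grow out. To follow a set of epidermis genes across whole root sections, 6 wheat genes were taken from the 18 epidermis genes of the study: TraesCS7B03G1286700, TraesCS5B03G1313300, TraesCS2B03G1540400, TraesCS6B03G0242600, TraesCS3D03G1015700 and TraesCS1D03G0362900. The study chose these genes among the leading genes of the epidermis cluster of its single-cell atlas because their spatial signal lay in the first layer of these same sections, so their outermost position on the distal root region chip describes the choice. The 6 genes are those left after the other 12 epidermis genes, most of them in a cluster on the group 2 chromosomes, were set aside. Some of those 12, such as TraesCS5D03G1173000, also lie outside that cluster, so the 6 are not all the epidermis genes outside it. By its ID TraesCS2B03G1540400 also lies on a group 2 chromosome, 2B. All 6 were detected on both chips and had at least 20 MIDs within the section outlines of each, out of 100979 nuclear gene IDs with at least 1 count on either chip.

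The spatial data are Stereo-seq libraries, in which poly(A) RNA of a section is captured on a chip of barcoded spots and each molecule is counted by a molecular identifier (MID) at its spot. Cross sections of 10 μm were cut from frozen roots of soil-grown Chinese Spring wheat and placed on 1 chip for the root cap region and 1 chip for the distal root region. No treatment is given for either group, both share cultivar and growth conditions (germination on MS medium, then soil), and neither the number of plants behind a chip nor the distance of a section from the tip is given in the labels. With 1 library per region there are no replicates, sections of 1 chip are not replicate libraries, and no p-value is given.

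The distal root region chip held 77515877 MIDs and the root cap region chip 28281662. Within hand-drawn outlines lay 9.53% of the nuclear MIDs of the distal chip, in 4 sections of 1459424 to 2210415 MIDs, and 10.4% of those of the root cap chip, in 10 sections of 82019 to 616835 MIDs. Levels are given as MIDs per 1000000 nuclear MIDs of the same section, with exact 95% Poisson limits that cover counting error only. The limits treat MIDs as independent, but MIDs of a gene shared spots. Within the outlines TraesCS7B03G1286700 had 537 MIDs on 435 spots of the distal chip and 495 on 370 spots of the root cap chip. The limits are therefore too narrow, and calls that rest on them can be too many. Levels of different genes are printed side by side for their section patterns, and are not read as relative amounts of their transcripts. The labelled regions were set beside root cap markers. The study had examined its leading genes on these same sections, so this is not an independent check. The 19 root cap genes of the study had 0 MIDs in the distal sections and 1199 in those of the root cap chip. Of these, section 5 held 670 and section 10 held 405. The other sections of that chip were at only 10.7 to 65.7 MIDs per 1000000 of these genes.

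A name was at hand for 1 of the 6 genes. TraesCS3D03G1015700 is annotated in the tables of the study as chitinase CLP-like and is orthologous to the rice gene CLP, which is listed there for epidermis and root hair. Chitinases cleave chitin, a polymer of fungal cell walls. Whether the product of this gene does so was not examined. TraesCS5B03G1313300 shares an orthologous group with TraesCS5B03G1313200 and TraesCS5D03G1173000, which the tables annotate as glycine-rich cell wall structural proteins, a class of proteins deposited in plant cell walls. TraesCS2B03G1540400 shares a group with TraesCS2B03G1540200 and TraesCS2B03G1534500. TraesCS7B03G1286700, TraesCS6B03G0242600 and TraesCS1D03G0362900 are given by ID only.

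In the distal root region the 6 genes lined the rim of the sections, and 5 of the 6 were at least 2-fold scarcer in section 1 than in sections 2 to 4 combined, with limits of the ratio excluding equality. The same held for 15.9% of the 31543 nuclear genes with at least 20 MIDs in the outlines, and for 29.7% of the 5886 with at least as many MIDs as the least counted member. TraesCS7B03G1286700 had 5 MIDs in section 1 and 179, 184 and 169 in sections 2, 3 and 4, and TraesCS2B03G1540400 had 8 against 245, 194 and 142. The chitinase CLP-like gene TraesCS3D03G1015700 had 103 MIDs in section 1 against 215, 182 and 169, and was the member least reduced there. The map of MIDs shows the rim nearly empty for the first pair of genes in section 1 and occupied for TraesCS3D03G1015700.

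**Figure D1:**
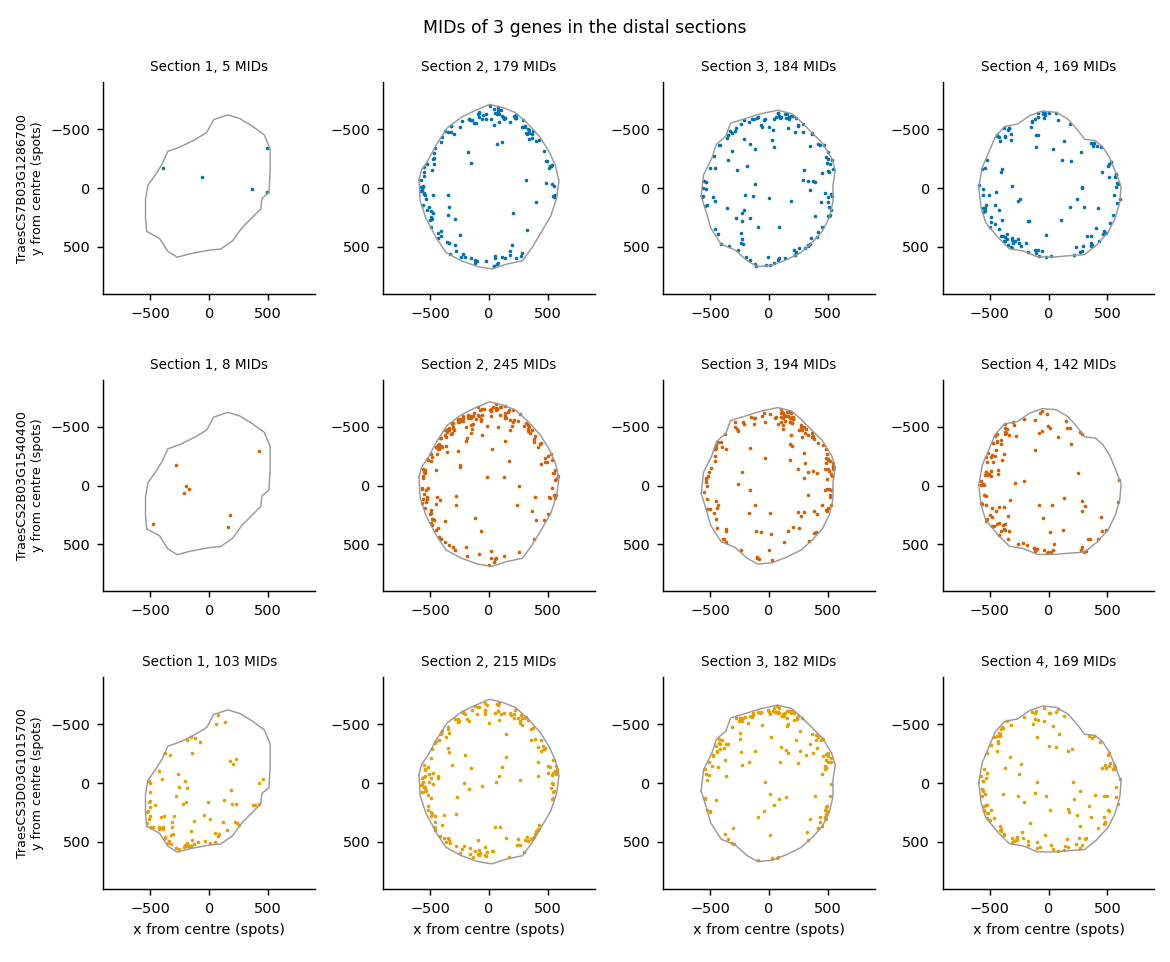
Positions of MIDs of TraesCS7B03G1286700, TraesCS2B03G1540400 and TraesCS3D03G1015700 in the 4 distal sections, in chip spots from the section centre, where each point is a spot with at least 1 MID and the grey line is the hand-drawn outline. TraesCS7B03G1286700 and TraesCS2B03G1540400 have 5 and 8 MIDs in section 1, where TraesCS3D03G1015700 has 103.

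By radius, the members' MIDs were concentrated at the edge. The relative radius of a spot runs from 0 at the section centre to 1 at the outline, and the outermost zone was set above 0.85. On the distal chip 79.7% of the MIDs of TraesCS7B03G1286700 lay in this zone (428 of 537), 74.4% of those of TraesCS5B03G1313300 (320 of 430) and 76.6% of those of TraesCS2B03G1540400 (451 of 589). The shares were 73.9% for TraesCS6B03G0242600 (458 of 620), 75.9% for TraesCS3D03G1015700 (508 of 669) and 80.4% for TraesCS1D03G0362900 (148 of 184), where the zone held 25.8 to 28.8% of all nuclear MIDs of a section. The log2 ratio of observed over expected MIDs in the zone was 1.38 to 1.51 over the 6 genes, with a median of 1.44, against a median of -0.07 over all genes. All 6 were at least 2-fold above expectation with limits above 1, which 2.93% of 31543 nuclear genes with at least 20 MIDs were (8.04% were above it by any size). The members were selected on this pattern.

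The signal dropped steeply inward. TraesCS7B03G1286700 had 352 MIDs per 1000000 spots at the rim (outermost zone), 42.4 in the cortex zone (radius 0.50 to 0.85), 32.2 in the zone of endodermis and pericycle (0.37 to 0.50) and 8.32 in the central zone. TraesCS3D03G1015700 had 418, 54.03, 56.4 and 34.96 in these zones. In the central zone each of the 6 genes had between 5 and 21 MIDs in all. The zones are cut-offs of the radius with nominal tissue names, and no cell layer was outlined. At 350 to 400 spots outside the outline TraesCS7B03G1286700 was at 118, above its inner zones. The inner values therefore cannot be assigned to those tissues.

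**Figure D2:**
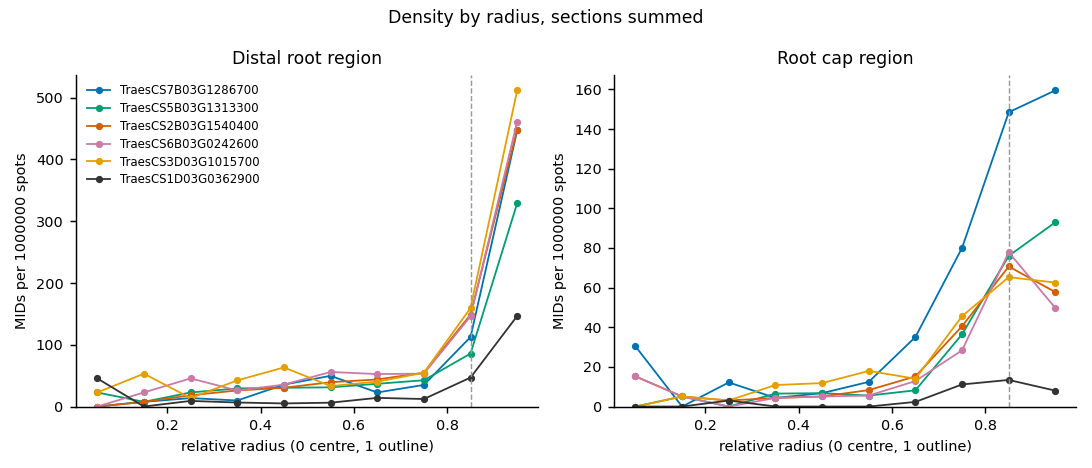
Density of each of the 6 genes, as MIDs per 1000000 spots, in 10 bins of the relative radius with the sections of a chip summed, and the inner boundary of the outermost zone as a dashed line at 0.85. On the distal chip all 6 genes are densest in the outermost bin, and on the root cap chip 4 of the 6 are densest in the bin inside it.

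Within the outermost zone the spread of MIDs around the root was described by quadrants of the map. Over the 20 cases of a gene in a distal section with at least 20 outermost MIDs, the quadrant that departed most from the share of all outermost MIDs did so by 3.91 to 33.001 percentage points, with a median of 11.5. TraesCS1D03G0362900 in section 2 was the most even (3.91), followed by TraesCS3D03G1015700 in section 2 (6.16) and TraesCS7B03G1286700 in section 3 (6.70). In section 1, 45 of the 68 outermost MIDs of TraesCS3D03G1015700 lay in the lower left quadrant of the map (66.2%), as did 19 of 28 of TraesCS6B03G0242600 (67.9%) and 12 of 12 of TraesCS1D03G0362900, where this quadrant held 34.9% of all outermost MIDs of the section. For TraesCS2B03G1540400 the departures were 12.6 to 22.8 points in sections 2 to 4. In section 3 its upper right quadrant held 72 of 146 outermost MIDs (49.3%, against 26.5% of all MIDs), and in section 4 the same quadrant held 7 of 106 (6.60%, against 23.8%). The quadrants were described after the map had been seen, and no test was made. The largest departure also grows by counting error as MIDs become fewer. It has no limits here and was not taken over other genes, so it does not show that genes differ.

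The study chose its epidermis genes by their outermost signal, assessed by eye on these same sections. The members were then picked with earlier results of these data known. The levels by section are therefore a description, and may not be independent of these choices. TraesCS7B03G1286700 stood at 3.43 MIDs per 1000000 in section 1 (limits 1.11 to 8.00), and at 99.8, 83.2 and 87.8 in sections 2, 3 and 4. Its level in sections 2 to 4 combined was 26.2-fold that in section 1 (limits 11.2 to 81.01). The limits of section 1 lay far below those of the other 3 sections, which overlapped each other.

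TraesCS2B03G1540400 was at 5.48 MIDs per 1000000 in section 1 (limits 2.37 to 10.8) and at 137, 87.8 and 73.8 in sections 2, 3 and 4. The ratio of sections 2 to 4 over section 1 was 17.9 (limits 9.01 to 41.6). Section 2 was also above sections 3 and 4, with limits of 120 to 155 against 75.9 to 101 and 62.2 to 86.98. Of the 8 MIDs in section 1, 1 lay in the outermost zone.

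TraesCS5B03G1313300 was at 19.9, 60.8, 73.7 and 67.04 MIDs per 1000000 in sections 1 to 4, which is 3.40-fold higher in the last 3 together (limits 2.33 to 5.15). TraesCS6B03G0242600 was at 30.8, 79.8, 102 and 107, a ratio of 3.15 (2.32 to 4.36). For both genes the limits of section 1 lay below those of the other 3 sections. TraesCS1D03G0362900, with the fewest MIDs, was at 12.3, 29.6, 34.4 and 19.2, a ratio of 2.27 (1.39 to 3.93), and its limits in sections 1 and 4 overlapped.

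TraesCS3D03G1015700 was at 70.6 MIDs per 1000000 in section 1 (limits 57.6 to 85.6), and at 120, 82.3 and 87.8 in sections 2, 3 and 4. Its ratio was 1.35 (1.09 to 1.69), and only section 2 had limits above those of section 1. Within section 1 its outermost-zone enrichment was 1.36, against 1.36 to 1.54 in the other sections.

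**Figure D3:**
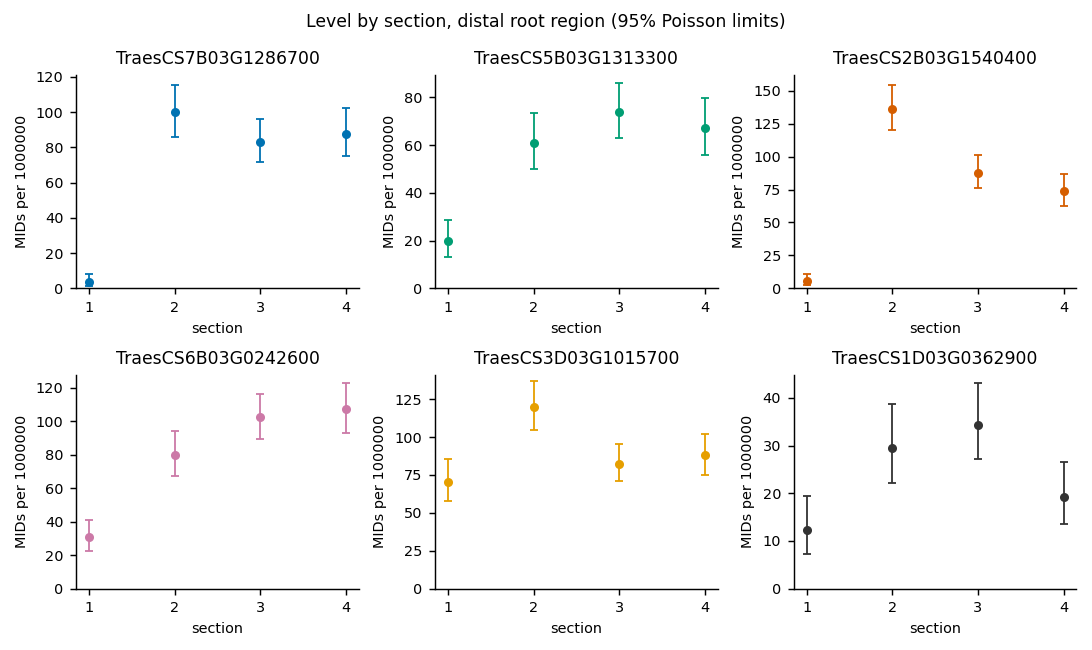
MIDs per 1000000 nuclear MIDs of each gene in the 4 distal sections, with exact 95% Poisson limits as bars. All 6 genes have their lowest point in section 1, from 3.43 for TraesCS7B03G1286700 to 70.6 for TraesCS3D03G1015700.

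A gene was counted as varying when its highest and lowest section differed at least 2-fold with limits apart. This held for 5 of the 6 genes, TraesCS3D03G1015700 being the exception at 1.70-fold, and for 43.6% of the 31543 genes. All 5 had section 1 lowest, as had 15.1% of all genes by this rule, and section 1 was the lowest for 6 of 6 members and for 32.5% of all genes by any size. Since calls grow with counts, the same shares were taken over the 5886 genes with at least the 184 MIDs of TraesCS1D03G0362900, and were 57.8% for varying and 33.5% for varying with section 1 lowest. The other members had 430 to 669 MIDs, so this matches depth only in part. In 2 members the difference was much larger. TraesCS7B03G1286700 and TraesCS2B03G1540400 differed at least 8-fold with section 1 lowest, as did 3.48% of all genes and 5.93% of those with at least 184 MIDs. This limit was set after their values were seen. Among sections 2 to 4 none of the 6 genes varied by the rule, with ratios of 1.20 to 1.85, against 10.3% of all genes.

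Some of the other tissue lists also stood apart in section 1, and others did not. The 12 other epidermis genes were at 498 MIDs per 1000000 in section 1 and at 1760, 1515 and 1681 in sections 2, 3 and 4, a ratio of 3.30 (limits 3.06 to 3.56). The 11 genes of the other epidermis cluster and of root hairs went the other way, at 256 in section 1 against 30.7 to 39.5. Each of the 11 was highest in section 1, and 258 of their 576 MIDs came from 1 gene, TraesCS1B03G0651500. The 20 G1/S genes of dividing cells were at 780 against 2749 to 6526, and the 4 xylem genes at 119 against 17.6 to 23.4. The 14 cortex genes, at 2144 in section 1 against 677, 2984 and 1199 in sections 2, 3 and 4, and the 8 provascular genes, at 122 against 49.6, 201 and 90.4, lay within the range of the other sections. The part of the tissues behind these lists in the members' levels was not tested. In bulk counts of a section, fewer epidermal cells and less RNA per cell cannot be told apart.

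Set against the 12 other epidermis genes in place of all MIDs, the members parted into 3 kinds. TraesCS7B03G1286700 had 0.688 MIDs per 100 MIDs of these genes in section 1 and 5.22 to 5.67 in the others, and TraesCS2B03G1540400 had 1.10 and 4.39 to 7.76. TraesCS3D03G1015700 went the other way, with 14.2 in section 1 (limits 11.4 to 17.4) and 5.22 to 6.81 in the others. TraesCS5B03G1313300, at 3.99 in section 1 and 3.45 to 4.87 elsewhere, TraesCS6B03G0242600 and TraesCS1D03G0362900 had section 1 within the range of the other sections or, for the last, above it with overlapping limits (2.48 against 1.14 to 2.27 and upper limits of up to 2.85). This denominator was chosen after the data were seen. It holds several genes of the orthologous group of TraesCS5B03G1313300, among them TraesCS2D03G0324500 with 2659 of the 10467 distal MIDs. It also holds TraesCS2B03G1534500, of the group of TraesCS2B03G1540400. The 3 kinds are thus relative in part to relatives of 2 members, not to epidermis genes at large.

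Close relatives differed in their section pattern. Of the 9 other genes in the group of TraesCS5B03G1313300, 7 were lowest in section 1, as it was itself, and 2 were highest there. TraesCS5B03G1313200, next in ID to TraesCS5B03G1313300 and annotated as a putative glycine-rich cell wall structural protein, was highest in section 1, at 67.1 MIDs per 1000000 against 25.8 to 42.6, where TraesCS5B03G1313300 was lowest. TraesCS5D03G1172900 was at 127 in section 1 against 17.6 to 34.3. TraesCS5D03G1173000, annotated as a glycine-rich cell wall structural protein 2-like, was at 108 against 169 to 191, and TraesCS4A03G0828700 at 58.2 against 62.9 to 110. The 5 genes of this group on the group 2 chromosomes were all lowest in section 1, from TraesCS2A03G0309200 at 4.80 against 70.6 to 91.5 to TraesCS2D03G0324400 at 114 against 264 to 328.

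In the group of TraesCS2B03G1540400, 1 of the other genes was highest and 1 was lowest in section 1. TraesCS2B03G1540200 had 596 MIDs in section 1, 512 in section 2, 83 in section 3 and 352 in section 4, or 408, 286, 37.5 and 183 per 1000000, where TraesCS2B03G1540400 had 8, 245, 194 and 142 MIDs. TraesCS2B03G1534500 was at 31.5 in section 1 against 52.99 to 65.5. Of the MIDs of TraesCS2B03G1540200 60.8% were outermost, against 76.6% for TraesCS2B03G1540400. Reads that match several of these copies could be split between them by the counting, which makes the levels of single copies uncertain.

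**Figure D4:**
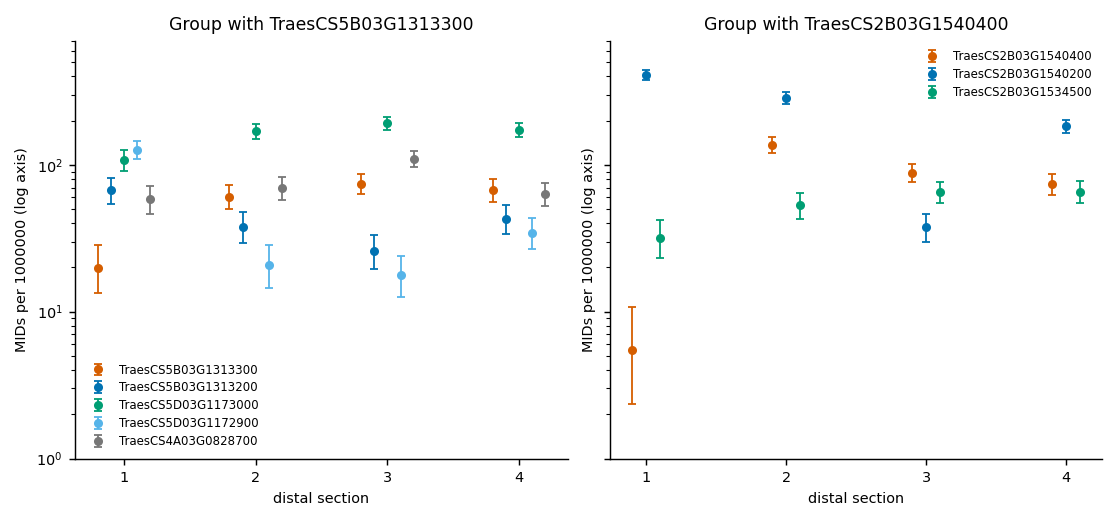
MIDs per 1000000 in the 4 distal sections, on a log axis with exact 95% Poisson limits, of TraesCS5B03G1313300 and the group members on chromosomes of groups 4 and 5 (left) and of TraesCS2B03G1540400 and its group (right). In section 1 TraesCS2B03G1540200 is at 408 and TraesCS2B03G1540400 at 5.48.

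The genes most like each member were sought over 40 points, the 10 radius bins of the 4 distal sections, among 5446 genes with at least 200 MIDs. These points share libraries and neighbouring bins, so r is a description. The bins of section 1 are among the points. Whether a neighbour is scarce or present in section 1 is thus part of what chose it, not a separate finding. TraesCS7B03G1286700 was most like 2 other epidermis genes, TraesCS2B03G0426600LC (r = 0.84) and TraesCS2A03G0309200 (0.79), which were also near absent from section 1 at 4.11 and 4.80 MIDs per 1000000. TraesCS2B03G1540400 was most like TraesCS2D03G1303900 (0.83), at 3.43 in section 1 and at 47.3 or more in the others, followed by TraesCS5B03G1313300 (0.80), whose own nearest genes were TraesCS2B03G1540400 and TraesCS2B03G0426900 (0.76).

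The other members had neighbours that were present in section 1. TraesCS3D03G1015700 was most like TraesCS5D03G1173000 (0.82) and TraesCS2A03G0038300 (0.81). TraesCS6B03G0242600 was most like TraesCS5D03G0868800 (0.80), at 117 in section 1 against 113 to 144, and TraesCS7D03G0914900 (0.80). TraesCS1D03G0362900, itself under the minimum of 200 MIDs, was nearest to TraesCS3B03G1405100 and TraesCS3D03G1031300 (0.72 for both). Among the members r ran from 0.48 for TraesCS7B03G1286700 with TraesCS3D03G1015700 to 0.80 for TraesCS5B03G1313300 with TraesCS2B03G1540400.

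On the root cap region chip the 6 genes were also above expectation in the outermost zone, but less so. The log2 enrichment was 0.87 for TraesCS7B03G1286700 (limits 0.70 to 1.03), 0.94 for TraesCS5B03G1313300 (0.71 to 1.17) and 0.84 for TraesCS6B03G0242600 (0.56 to 1.10). It was 0.55 for TraesCS2B03G1540400 (0.27 to 0.81), 0.64 for TraesCS3D03G1015700 (0.37 to 0.89) and 0.64 for TraesCS1D03G0362900, with limits of -0.02 to 1.22 from 39 MIDs. Limits lay above expectation for 5 of 6 members, as for 6.13% of 17489 genes with at least 20 MIDs and 7.87% of 10290 with at least 39. The study viewed all segmented sections when it chose the genes, so this chip is not fully independent of the choice. None of the members reached 2-fold, which 1.56% of all genes did with limits above 1. The highest possible enrichment falls as the zone's share of all MIDs rises. That share was 45.6% and 39.7% in sections 1 and 2 of this chip, against 25.8 to 28.8% in the distal sections. The values of the chips are thus not on the same scale.

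The enrichment varied between the sections of this chip. TraesCS7B03G1286700 was below expectation in the outermost zone of section 1 (-0.68, limits -1.29 to -0.12), with 26 of 91 MIDs there, and of section 5 (-0.96, limits -3.24 to 0.59), with 3 of 21. In the other 6 sections with at least 10 of its MIDs it was at 0.60 to 1.74. Section 1 held 45.6% of all its MIDs in the outermost zone, against 20.7 to 39.7% in the other sections. Without section 1 the 6 values were 0.76 to 1.35 and all 6 had limits above expectation. Without section 5 they were 0.56 to 0.94, with 5 of 6 above.

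Between the root cap sections the members differed from one another. The sections stand on the chip in an upper group, 1 to 5, and a lower group, 6 to 10, and are described in pairs by their place in it (1 with 6, and so on). TraesCS3D03G1015700 was highest in sections 5 and 10, at 310 and 235 MIDs per 1000000, followed by 142 and 109 in sections 1 and 6 and by 12.5 to 45.8 in the other 6. Sections 5 and 10 are the pair rich in root cap RNA, with 4158 and 2375 MIDs per 1000000 of the 19 root cap genes against 10.7 to 65.7 in the others, while the 12 other epidermis genes were at their lowest there, at 267 and 188 against 341 to 2615. The part of root cap RNA in the level of TraesCS3D03G1015700 was not tested.

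TraesCS2B03G1540400 was at 217 and 174 MIDs per 1000000 in sections 1 and 6, at 86.9 and 123 in sections 5 and 10 and at 9.15 to 42.7 in the rest. Sections 2 and 7, with 3 and 13 MIDs of this gene, had 100 and 116 MIDs of TraesCS7B03G1286700. The latter was at 305 and 188 in these 2 sections, at 227 and 260 in sections 1 and 6 and at 12.2 to 130 in the others. The limits of TraesCS2B03G1540400 in sections 1 and 6 lay above those in sections 2, 3, 7 and 8.

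TraesCS5B03G1313300 and TraesCS6B03G0242600 had few or no MIDs in the root cap pair. TraesCS5B03G1313300 had 0 MIDs in section 5 (upper limit 22.9 per 1000000) and 1 in section 10, and was at 62.6 to 162 in sections 1 to 3 and 6 to 8. TraesCS6B03G0242600 had 3 and 1 MIDs in sections 5 and 10 and was at 65.7 to 109 in the same 6 sections. Its limits in section 5 (3.84 to 54.4) overlapped those in sections 2, 3, 7 and 8. Those in section 10 (0.15 to 32.7) lay below the limits of the same 6 sections. TraesCS1D03G0362900 had 29 of its 39 MIDs in sections 1 and 6, and 0 in sections 3, 4, 9 and 10. Sections 4 and 9 were the shallowest, and each member had at most 4 MIDs in either.

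**Figure D5:**
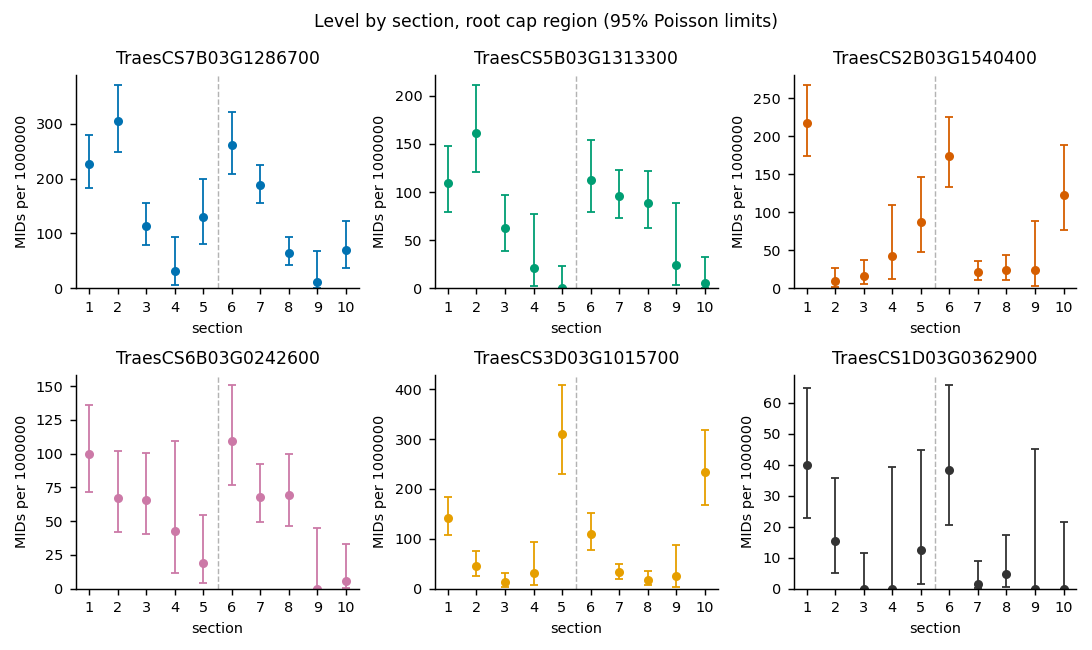
MIDs per 1000000 of each gene by section, 1 to 10, on the root cap region chip, with exact 95% Poisson limits, and a dashed line between the upper group (1 to 5) and the lower group (6 to 10). TraesCS3D03G1015700 peaks in sections 5 and 10 (310 and 235), where TraesCS5B03G1313300 has 0 and 1 MIDs.

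All 6 genes varied between the root cap sections by the 2-fold rule, as did 34.9% of the 17489 genes and 47.4% of those with at least 39 MIDs. Sections of a pair were set against each other and against sections of other pairs. Of 29 pair values with at least 1 MID, the limits of the ratio excluded equality in 4: TraesCS7B03G1286700 and TraesCS5B03G1313300 in sections 2 and 7 (log2 ratios of 0.70 and 0.76), TraesCS7B03G1286700 in sections 3 and 8 (0.81) and TraesCS1D03G0362900 in sections 2 and 7 (5 and 1 MIDs). Between sections that are not a pair they excluded equality in 136 of 235 values (57.9%, against 13.8% within pairs). Over the 10290 genes with at least 39 MIDs these shares were 22.7% and 9.03%. That minimum is the count of TraesCS1D03G0362900, and the other members had 199 to 495 MIDs on this chip. The shares of members and of all genes are thus not matched in depth. The values share sections, and no test was made. The limits do not show the other pairs to be equal, since many hold few MIDs. Whether the sections of a pair come from 1 root is not given.

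Between the chips no common direction was seen. Per 1000000 MIDs within the outlines TraesCS7B03G1286700 was at 72.7 in the distal root region and 169 in the root cap region, a log2 ratio of -1.22 (limits -1.40 to -1.04), and TraesCS5B03G1313300 at 58.2 and 87.4 (-0.59, limits -0.81 to -0.36). TraesCS1D03G0362900 was at 24.9 and 13.3 (0.90, limits 0.40 to 1.44) and TraesCS6B03G0242600 at 83.9 and 67.9 (0.30, limits 0.07 to 0.54). The limits of TraesCS2B03G1540400 (0.10, limits -0.13 to 0.33) and TraesCS3D03G1015700 (0.17, limits -0.04 to 0.40) included equality. By the 2-fold rule 1 member, TraesCS7B03G1286700, was higher on the root cap region chip, as were 7.73% of 35667 genes. On the distal chip 0 were higher, as were 16.8%. The call rests on distal section 1. In distal sections 2 to 4 combined TraesCS7B03G1286700 was at 89.7, within 2-fold of 169. On the root cap chip it was highest in sections 1, 2, 6 and 7, which are not the sections rich in root cap RNA.

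These ratios compare 2 libraries and rest on where the outlines lie. Over the whole chips TraesCS7B03G1286700 was at -0.09, and the other 5 were at 0.68 to 1.76, all higher on the distal chip. For the 6 genes summed the ratio was -0.26 within the outlines and 0.81 over the whole chips.

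Most MIDs of the members lay off the outlined tissue. On the distal chip 5.85 to 8.602% of a member's MIDs were within the outlines, against 9.53% of all nuclear MIDs, and on the root cap chip 13.3 to 20.3% against 10.4%. Just outside the distal outlines, at 0 to 50 spots, TraesCS6B03G0242600 had 410 MIDs per 1000000 spots, against 377 in the outermost zone, and 151 at 350 to 400 spots. For TraesCS7B03G1286700 these values were 329, 352 and 118. All nuclear genes together changed less with distance, from 1.28 to 1.09 MIDs per spot between these distances.

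On the distal chip the off-tissue signal followed the section beside it. In the ring 50 to 300 spots outside the outline TraesCS7B03G1286700 had 11.1 MIDs per 1000000 spots around section 1 and 204 to 252 around sections 2 to 4, and TraesCS2B03G1540400 had 7.70 and 187 to 225. TraesCS3D03G1015700 had 156 around section 1 and 212 to 238 around the others. The low counts of the first pair of genes in section 1 were thus low on both sides of its outline. On the root cap chip the ring was less dense than the outermost zone in most cases, but not in all. Around its section 4 TraesCS7B03G1286700 had 41.6 MIDs per 1000000 spots in the ring and 13.5 in the outermost zone.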

How the data were processed

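The members, gene lists and comparisons were chosen with earlier results of these data known. The authors used the STOmics Analysis Workflow (SAW, version 1.0) for alignment and counting. For the spatial counts, settings and genome build were not given in the sources used here. They deposited raw whole-number counts of MIDs and of exonic MIDs for every gene at every spot of a chip, tissue or not. Over the outlined sections 99.6 to 100% of the members' MIDs were exonic. Chloroplast and mitochondrial rows (0.00494% and 0.00193% of MIDs) were left out. Genes were matched by ID. The gene name table at hand matched none of the IDs, so names come from the study's tables.

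Outlines were drawn by hand on a density map of all MIDs before any gene was mapped. Since this sets which MIDs are counted, outlines shrunk and grown by 5% were tried. Section numbers are those of the outlines here and could not be matched to the study's. Radius is the distance from the centroid over that to the outline along the same ray. Expected MIDs in a zone came from the share of all nuclear MIDs there in each section. Limits are exact 95% Poisson or conditional binomial limits, and a count of 0 was set to a floor of 3 MIDs in ratios. Genes were named by a rule: the 6 members, their orthologous groups and the 2 genes most like each, by Pearson r of log2(MIDs per 1000000 of the bin + 1). Steps were tested on simulated data in which MIDs were independent. Python 3.11.15 was used with numpy 2.4.6, scipy 1.17.1 and pandas 2.3.3.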

Additional observations from a re-analysis of the deposited data

How the results depend on the processing

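No paired analysis was possible because each region has 1 library. For the 6 genes summed, the distal outermost-zone enrichment was 1.43 on the log2 scale. It was 1.28 with outlines shrunk by 5%, 1.15 with the boundary at 0.80 and 1.75 with it at 0.90, and 1.38 to 1.46 with any 1 section or gene left out. With the density of the ring outside subtracted it could not be given, since the subtraction left a negative total in each section. The radial shift, the members' mean radius minus that of all MIDs, was 0.200 of the radius. It was 0.180 with shrunk outlines, 0.212 with distance to the nearest outline point, and 0.194 to 0.202 with any 1 section or gene left out. The count of members that vary between distal sections was 5, and 0 to 5 with any 1 section or gene left out, the 0 being without section 1. It was 3 relative to the 12 other epidermis genes, an alternative added after seeing the data.

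The distal over root cap ratio of the 6 genes summed, -0.26 on the log2 scale, was the least stable value. It was -0.69 with shrunk and -0.022 with grown outlines, -0.43 with exonic MIDs only, -0.47 without the 100 top genes of either chip, -0.12 per outermost-zone MID and 0.81 over the whole chips. With any 1 section or gene left out it was -0.40 to 0.061, the highest being without TraesCS7B03G1286700 and 0.061 being the only positive one. Without distal section 1 it was -0.049 and without root cap section 1 it was -0.095. Depth limits sections 4 and 9 of the root cap chip, where 3 MIDs correspond to 32.02 and 36.6 per 1000000. It also limits sections 5 and 10, where 3 MIDs correspond to 18.6 and 17.6.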
